A study of Mus musculus with 8 samples.

Results

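The genes described here are the nuclear genes of oxidative phosphorylation, the machinery of the inner mitochondrial membrane that turns the oxidation of NADH and succinate into ATP. Members were the probe sets whose single gene symbol on the platform annotation starts with Nduf, Sdha, Sdhb, Sdhc, Sdhd, Uqcr, Cox4, Cox5, Cox6, Cox7, Cox8 or Atp5, with the Sdhaf assembly factors left out. The rule used names and no measured value, and it gave 179 probe sets for 90 genes, of 45037 probe sets and 18193 named genes in all. Gene expression was measured in RNA of monocytes from 12-week-old C57Bl/6 mice, sorted into Gr1hi (Ly-6chi) and Gr1lo (Ly-6clo) cells. For every sort, the leukocytes of 5 mice were combined, and 4 separate sorts gave 4 samples of each subset. RNA of a sample went onto 1 Affymetrix array of the mouse genome. The labels name no engineered allele and no agent, and the sorted subset is the only difference between the groups that they give.

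In oxidative phosphorylation, complex I (NADH dehydrogenase) and complex II (succinate dehydrogenase) pass electrons to ubiquinone. Complex III passes them on to cytochrome c, and complex IV (cytochrome c oxidase) to oxygen. Complexes I, III and IV pump protons across the inner membrane, and complex V (ATP synthase) uses their return to make ATP. Apart from complex II, the complexes also hold subunits encoded in the mitochondrial genome. Gr1hi monocytes are the classical subset known to enter inflamed tissue, and Gr1lo monocytes the nonclassical subset known to patrol the vessel wall.

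All 11 listed monocyte markers were on the array and passed the filter on dim signal, which many markers of other cell types passed too. Their summed intensity was 75836 to 77408 in Gr1hi and 72285 to 76212 in Gr1lo arrays. Of the 11 markers, 4 were called higher in Gr1hi and 4 higher in Gr1lo (72.7% called, against 32.5% of all genes tested). Csf1r, the receptor for macrophage colony-stimulating factor, stood at 13.86 in Gr1hi and 14.06 in Gr1lo (mean log2 intensity). The 8 arrays had median intensities from 80.5 to 83.0, and their number limits the precision. The summed intensity of 10 neutrophil markers was 2117 to 2740 in Gr1hi and 1514 to 1850 in Gr1lo arrays, with 3 of 8 tested called higher in Gr1hi and Cxcr2 below the table median in every array. That of 6 B cell markers overlapped, at 3306 to 4670 in Gr1hi and 3027 to 3972 in Gr1lo, with 2 of 5 tested called higher in Gr1hi. That of 6 NK cell markers was 533 to 671 in Gr1hi and 886 to 1114 in Gr1lo, with 2 of 3 tested called higher in Gr1lo and Eomes below the table median throughout. Summed dendritic cell markers were 1208 to 1402 in Gr1hi and 1451 to 1962 in Gr1lo, with 1 of 5 tested called in each direction and Xcr1 below the table median throughout. No tested marker of T cells, platelets or red cells was called, Cd5 and Hba-a1 lay below the table median throughout, and all 7 markers of eosinophils and basophils did so too. Summed platelet markers nevertheless ranged widely, from 1896 to 4369 in Gr1hi and 2217 to 5547 in Gr1lo. Summed red cell markers ranged from 981 to 3089 in Gr1hi and 1053 to 4565 in Gr1lo. The part that other cell types play in the results below was not tested.

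In each of the 5 complexes, most tested oxidative phosphorylation genes had a higher mean in Gr1hi monocytes, by modest amounts. Of 86 member genes tested with limma, 49 were called higher in Gr1hi (57.0%) and 0 higher in Gr1lo. Called means a Benjamini-Hochberg adjusted p under 0.05 over all tested probe sets, and each gene is represented by its brightest tested probe set. Among all 11546 genes tested, 18.5% were called higher in Gr1hi and 14.1% higher in Gr1lo. No member reached a 2-fold difference. The 37 members that were not called included 9 with an unadjusted p under 0.05.

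Differences are Gr1lo minus Gr1hi on the log2 scale throughout. Their median over the tested members was -0.25, against -0.01 over all genes tested. The difference was below 0 for 75 members and above 0 for 11, while 52.7% of all genes tested had one below 0. Members ran from -0.99 for Cox6b2 to 0.17 for Cox5a. The 4 Gr1hi values all lay above the 4 Gr1lo values for 53 members and all below them for 0, where 19.2% and 14.7% of all genes did so.

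**Figure D1:**
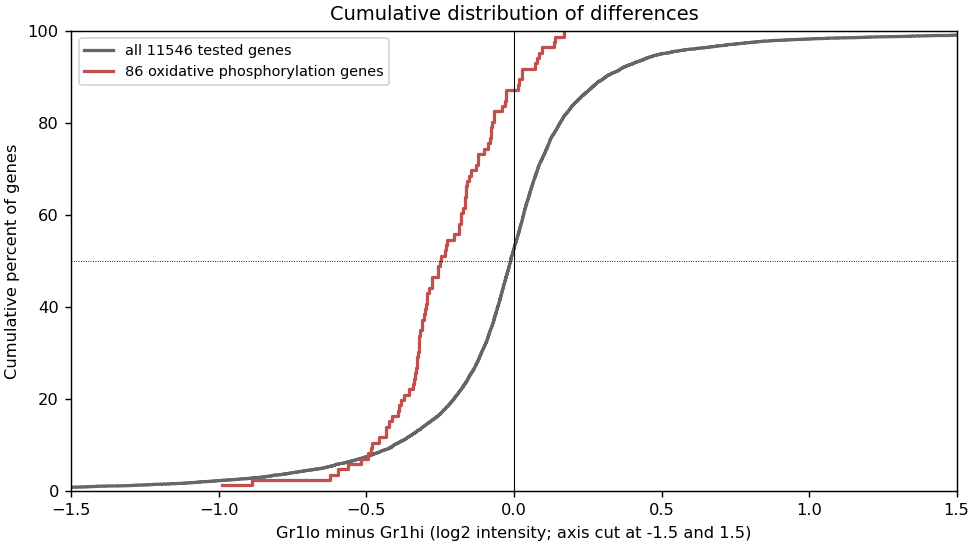
Cumulative percent of genes (vertical axis) against the difference Gr1lo minus Gr1hi in log2 intensity (horizontal axis), for the 86 tested oxidative phosphorylation genes (red) and all 11546 tested genes (grey). The red curve lies to the left around the middle, crossing the 50% line near its median of -0.25, and the grey curve extends much further on both sides.

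Many members were bright, and bright probe sets were called more often. Among the 1677 genes whose mean level was at or above the lower quartile of the members (log2 intensity 9.95), 28.5% were called higher in Gr1hi and 25% higher in Gr1lo. Of the 64 members in that range, 41 were called higher in Gr1hi. Of the 25 tested member probe sets with a mean under 8, 3 were called higher in Gr1hi (12.0%, against 10.6% of all probe sets under 8). Of the 49 between 10 and 11, 34 were called (69.4%, against 27% of all probe sets there).

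By complex, 26 of 43 tested genes of complex I were called higher in Gr1hi, 2 of 4 of complex II, 3 of 8 of complex III, 6 of 14 of complex IV and 12 of 17 of complex V. These counts were 60.5%, 50%, 37.5%, 42.9% and 70.6% in that order. Of all genes tested, 18.5% were called higher in Gr1hi, and of the 1677 brighter genes above, 28.5%. The share of complex III came closest to both. From complex I to V, the median differences were -0.29, -0.20, -0.12, -0.14 and -0.26. Complex I was counted with 8 Ndufaf assembly factors, of which 1 was called (median -0.01), and with Ndufa4, now known as a subunit of complex IV. Complex IV was counted with 4 tested tissue-restricted isoforms, of which 1 was called, while 5 of its 10 main genes were called. Whether the complexes differ from each other was not tested.

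**Figure D2:**
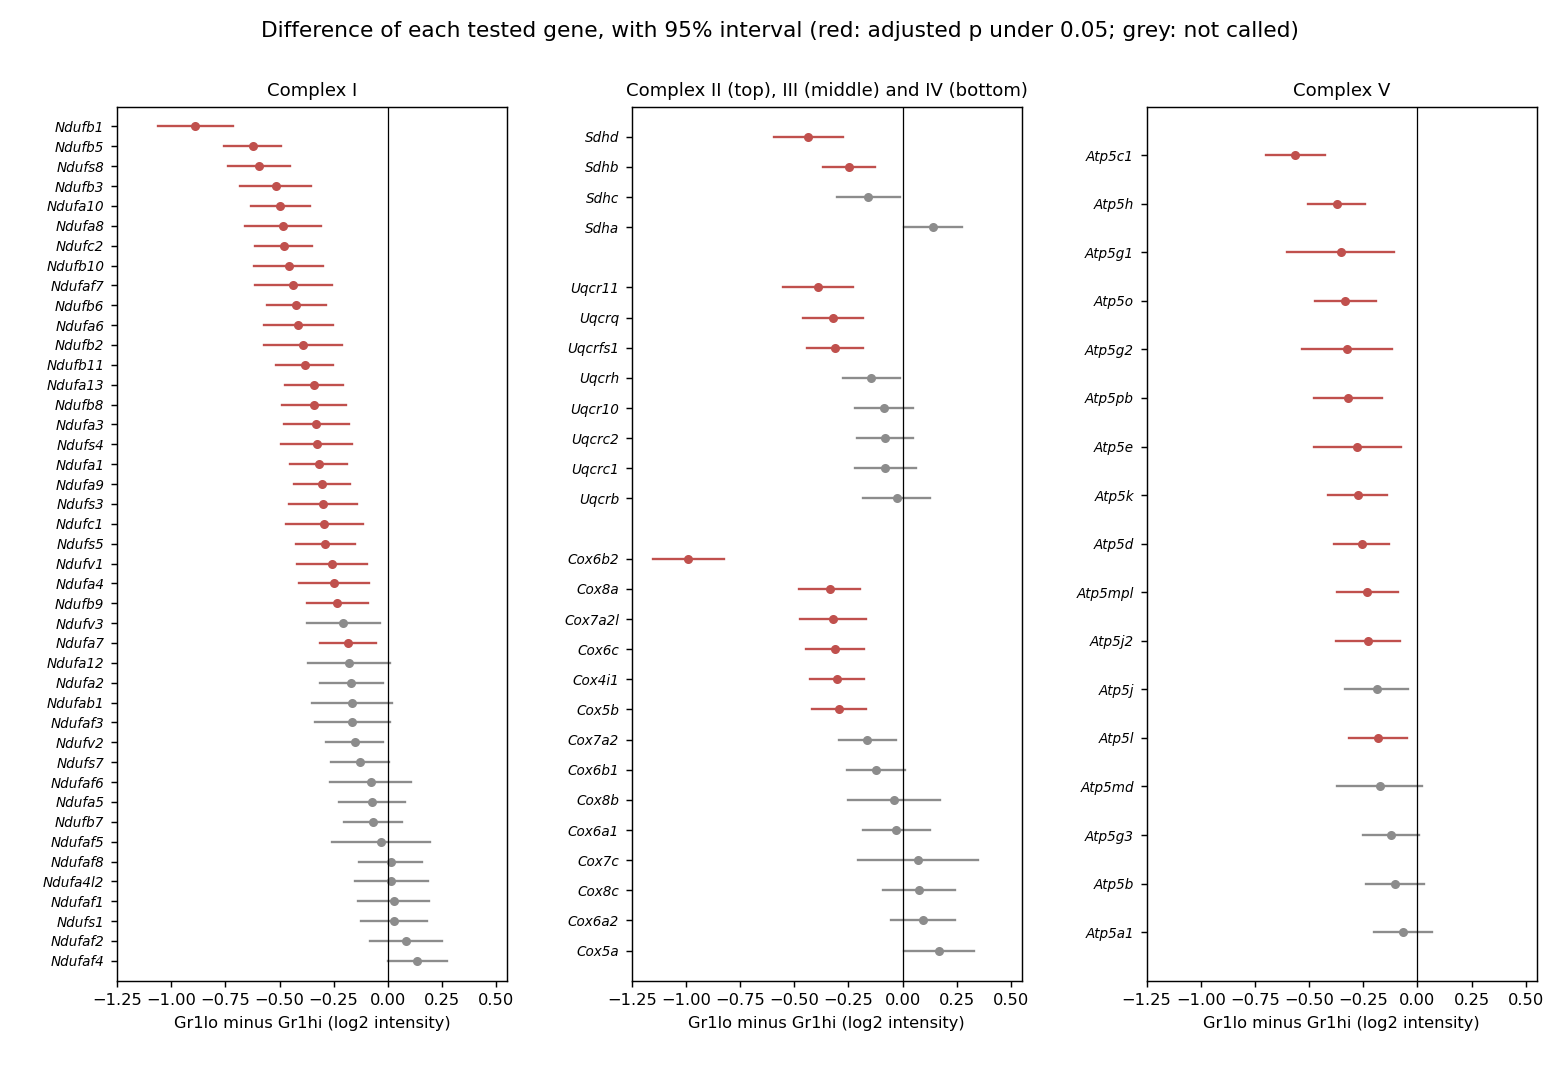
Difference Gr1lo minus Gr1hi in log2 intensity (horizontal axis) of each of the 86 tested genes, as points with 95% intervals from limma, for complex I, complexes II to IV and complex V. Red genes were called at an adjusted p under 0.05 and all of them lie left of 0, from -0.99 for Cox6b2 to -0.18 for Atp5l, while grey genes were not called.

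Averaged over the tested genes of a complex, as log2 intensity minus each gene's mean over the 8 arrays, every Gr1hi array lay above every Gr1lo array in all 5 complexes. For complex I the Gr1hi arrays 1 to 4 stood at 0.20, 0.13, 0.16 and 0.04, and the Gr1lo arrays at -0.13, -0.07, -0.18 and -0.15. For complex V they stood at 0.17, 0.13, 0.16 and 0.05 in Gr1hi and at -0.11, -0.09, -0.19 and -0.13 in Gr1lo. Gr1hi replicate 4 was thus the lowest of its group in these complexes, although in complex II it was the highest, at 0.13. For 53 of 86 members (61.6%) it gave the lowest of the 4 Gr1hi values, against 28% of all genes. Gr1lo replicate 2 gave the highest of the 4 Gr1lo values for 47 members (54.7%), against 37.1% of all genes. The same mean over all genes tested differed between the groups by -0.02.

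**Figure D3:**
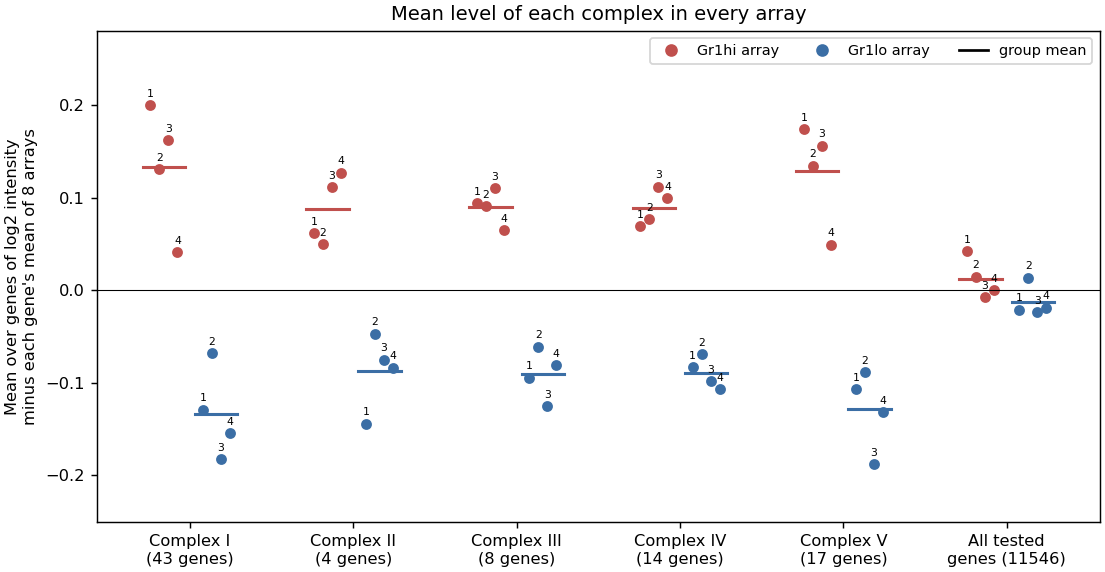
Mean over the tested genes of each complex, and over all tested genes, of log2 intensity minus the gene's own mean over 8 arrays (vertical axis), with 1 point per array numbered by replicate and a line at the group mean. In each complex the 4 Gr1hi arrays (red) lie above 0 and the 4 Gr1lo arrays (blue) below it, with Gr1hi replicate 4 closest to 0 in complexes I and V.

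The promoters of members can be set beside these differences, since genes of the pathway are known to share binding sites for NRF1, for Ets factors such as GABP, for YY1 and for ERR alpha. RefSeq promoter windows of GRCm38.p6, from 250 bases before to 50 after a gene's start, matched 74 of the 90 member genes. Searched on both strands, the Ets core CCGGAAG was in a window of 19 of the 74 members (25.7%), of 19.8% of 9338 tested genes with a window and of 9.93% of all 27025 genes with one. The NRF1 core GCGCATGCG was in 9 members (12.2%, against 3.94% of tested genes and 1.95% of all), and the YY1 core AAGATGGC in 10 (13.5%, against 5.38% and 3.19%). The ERR alpha core AAGGTCA was in 8 (10.8%, against 3.99% and 5.38%). None of these strings contains another. The NRF1 string with 1 further C at its end was counted first and was in 6 members (8.11%, against 2.27% and 1.07%).

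Members called higher in Gr1hi and members not called both held the cores. The Ets core was in 11 of 44 called members (25%) and 8 of 27 not called (29.6%), and the NRF1 core in 5 (11.4%) and 4 (14.8%). The longer NRF1 string was in 2 called (4.55%) and 4 not called members (14.8%), so the choice of string moves this split. The YY1 core was in 7 called (15.9%) and 3 not called members (11.1%), and the ERR alpha core in 6 (13.6%) and 1 (3.70%). These are letter matches in a fixed window and show no binding.

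The 7 windows below run from 110 bases before to 20 after the start in the direction of transcription, with the Ets core in capitals on either strand. Cox6b2 and Ndufb1 are shown because they had the largest differences of all members, and they hold none of the 4 cores in the stretch printed. The Uqcr11 stretch also holds the NRF1 core. Ndufs3, Sdhd, Uqcr11, Cox8a and Atp5h are, in complexes I to V, the called member with the largest difference among those with 1 start in RefSeq whose stretch holds the Ets core. All are on the minus strand, at chr7:4753075-4753204 (Cox6b2), chr12:101975719-101975848 (Ndufb1), chr2:90904702-90904831 (Ndufs3), chr9:50603830-50603959 (Sdhd), chr10:80406802-80406931 (Uqcr11), chr19:7217597-7217726 (Cox8a) and chr11:115419900-115420029 (Atp5h).
Cox6b2: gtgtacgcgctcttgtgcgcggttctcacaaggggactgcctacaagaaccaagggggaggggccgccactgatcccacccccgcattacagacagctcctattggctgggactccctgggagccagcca
Ndufb1: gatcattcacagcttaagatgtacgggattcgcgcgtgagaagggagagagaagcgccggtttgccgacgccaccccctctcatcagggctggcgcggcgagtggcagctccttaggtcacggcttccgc
Ndufs3: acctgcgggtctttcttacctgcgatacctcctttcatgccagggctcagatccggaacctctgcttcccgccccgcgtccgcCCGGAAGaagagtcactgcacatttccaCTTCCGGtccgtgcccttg
Sdhd: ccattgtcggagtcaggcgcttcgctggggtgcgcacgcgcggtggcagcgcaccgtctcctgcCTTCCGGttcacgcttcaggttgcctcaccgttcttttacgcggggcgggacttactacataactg
Uqcr11: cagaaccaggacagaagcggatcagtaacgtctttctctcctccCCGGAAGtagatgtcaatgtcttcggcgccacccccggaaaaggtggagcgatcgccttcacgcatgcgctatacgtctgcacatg
Cox8a: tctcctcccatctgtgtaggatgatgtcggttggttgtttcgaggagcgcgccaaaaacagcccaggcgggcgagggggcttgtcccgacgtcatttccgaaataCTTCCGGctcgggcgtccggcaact
Atp5h: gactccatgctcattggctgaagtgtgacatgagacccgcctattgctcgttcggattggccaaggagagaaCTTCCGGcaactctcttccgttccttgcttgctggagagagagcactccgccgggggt

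Complex I, the largest complex, had the most called members. Ndufb1, an accessory subunit of the membrane arm, stood at 8.66, 8.91, 8.80 and 8.59 in Gr1hi and at 7.79, 7.91, 7.79 and 7.93 in Gr1lo (log2 intensity in replicates 1 to 4). Its groups were far apart, with a 1.85-fold difference (-0.89, SE 0.08, limma adjusted p = 5.9e-06). Ndufb5, another subunit of the membrane arm, stood at 11.19, 11.17, 11.24 and 11.08 in Gr1hi and at 10.58, 10.56, 10.50 and 10.54 in Gr1lo. It was 1.54-fold higher in Gr1hi (SE 0.06 log2, adjusted p = 1.0e-05), with little spread within either group. Ndufb3, of the same arm, read 10.83, 10.68, 10.83 and 10.61 against 10.27, 10.31, 10.16 and 10.12, a 1.43-fold difference (adjusted p = 0.00023).

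The Ndufb subunits, which belong to the membrane arm, were called higher in Gr1hi for 9 of the 10 tested, with a median difference of -0.41. Ndufb7 was the exception (difference -0.07, 95% interval -0.20 to 0.07, adjusted p = 0.46). Ndufb4 was not tested, because its only probe set with a single symbol lay below the table median in every array. Both Ndufc subunits were called, Ndufc2 at -0.48 and Ndufc1 at -0.29.

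Of the 9 tested Ndufs and Ndufv genes, which hold most of the nuclear-encoded catalytic core, 5 were called higher in Gr1hi (median difference -0.26). Ndufs8, a core subunit that carries iron-sulfur clusters on the way to ubiquinone, stood at 11.29, 11.19, 11.29 and 11.19 in Gr1hi and at 10.63, 10.77, 10.60 and 10.57 in Gr1lo. The groups did not overlap, and the difference was 1.51-fold (-0.60, SE 0.07, adjusted p = 3.0e-05). All 6 of its probe sets were called the same way, at -0.64 to -0.28. The core subunit Ndufs3 (-0.30), the accessory subunits Ndufs4 (-0.33) and Ndufs5 (-0.29), and the flavin-binding subunit Ndufv1 (-0.26) were also called. Ndufs1, the largest core subunit, differed by 0.03 (95% interval -0.12 to 0.18, adjusted p = 0.81), and Ndufs7, Ndufv2 and Ndufv3 were not called at differences of -0.13, -0.15 and -0.20. The other 2 tested probe sets of Ndufv2 were called higher in Gr1hi, at -0.30 and -0.31 (adjusted p = 0.0045 and 0.011).

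Of the 14 tested Ndufa genes, 9 were called higher in Gr1hi, with a median difference of -0.28. Ndufa10 led at -0.50 and Ndufa8 followed at -0.49, while Ndufa2, Ndufa5, Ndufa12 and the acyl carrier protein Ndufab1 were not called at -0.17, -0.07, -0.18 and -0.17. Ndufa4, now known as a subunit of complex IV despite its name, was called at -0.25. Its paralog Ndufa4l2, known as a hypoxia-induced gene, was dim and differed by 0.02 (adjusted p = 0.90).

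The Ndufaf genes help to assemble complex I and are not part of the finished enzyme. Of the 8 tested, 1 was called, and their differences lay on both sides of 0 (4 below and 4 above, median -0.01). The called gene, Ndufaf7, a methyltransferase that acts on a core subunit, stood at 9.18, 8.96, 9.18 and 8.88 in Gr1hi and at 8.58, 8.70, 8.64 and 8.55 in Gr1lo. Its groups did not overlap (1.35-fold, adjusted p = 0.0015). Ndufaf4 had the largest difference toward Gr1lo of this group, 0.14, and was not called (adjusted p = 0.13). Of the Ndufaf genes, 5 had group means below 8 in both subsets. Among all probe sets with a mean under 8, 10.6% were called higher in Gr1hi, against 15.9% at all levels. The brighter Ndufaf3 (-0.16) and Ndufaf8 (0.01) were not called either. Whether signal level bears on the Ndufaf calls was not tested.

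**Figure D4:**
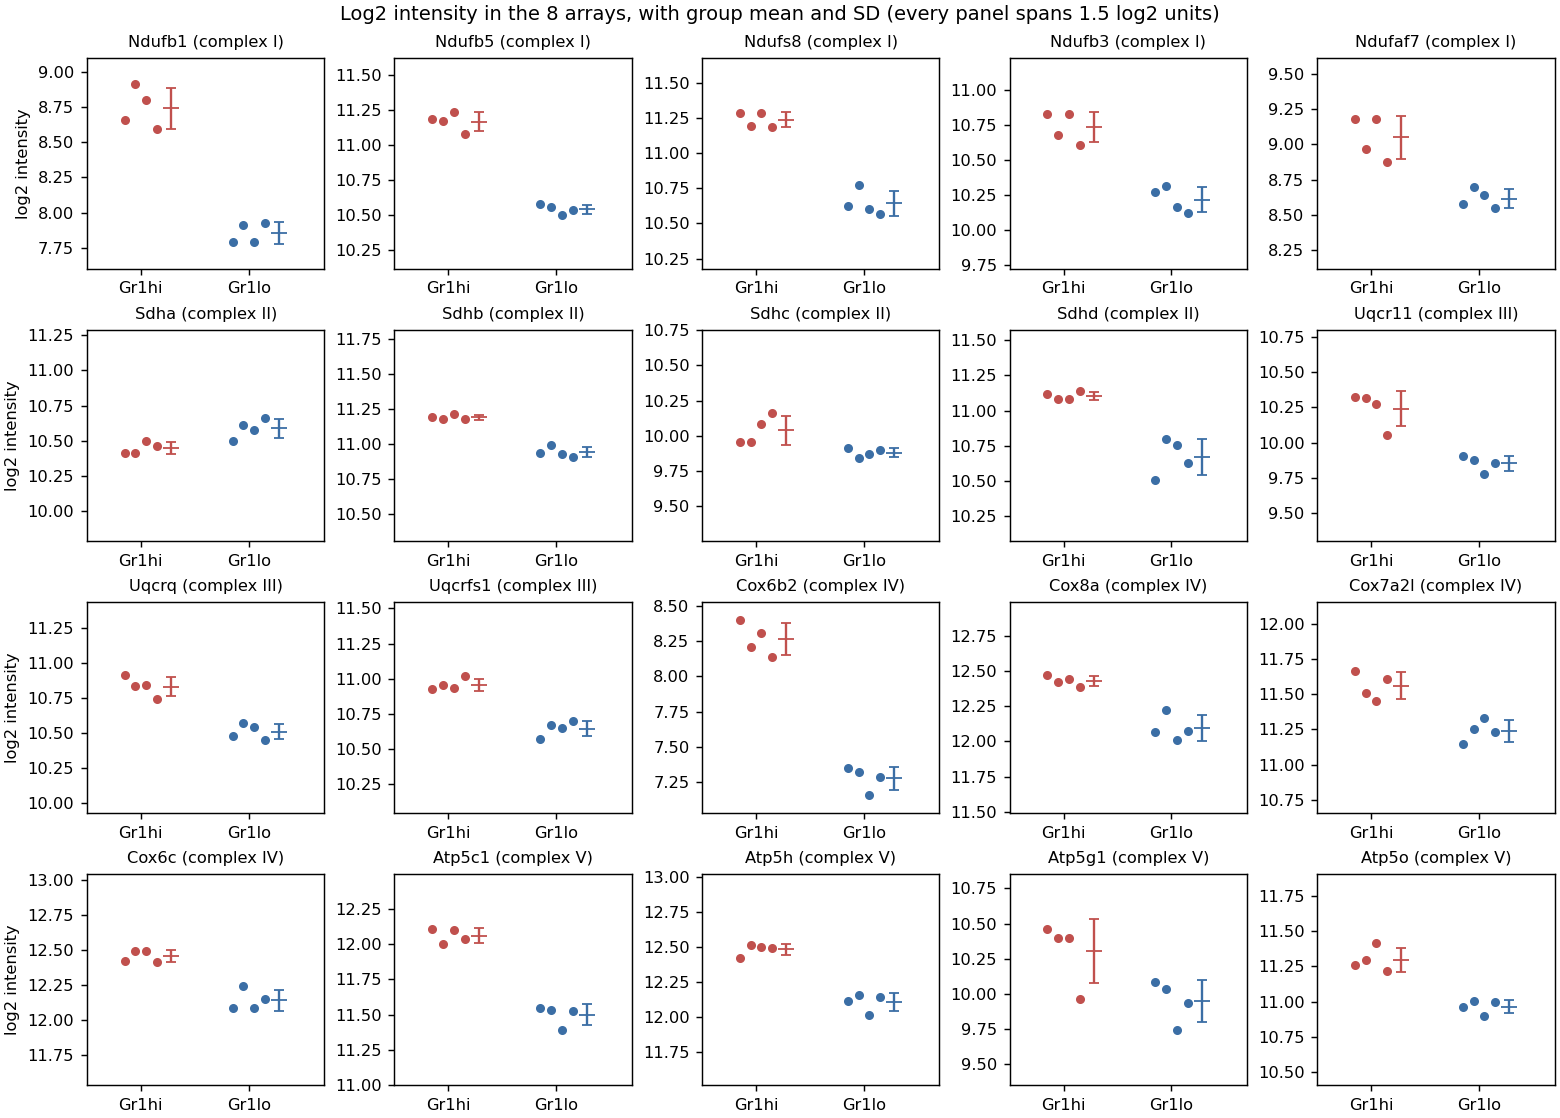
Log2 intensity (vertical axis) in the 4 Gr1hi arrays (red) and 4 Gr1lo arrays (blue) for the 20 genes whose values are given in full, with the group mean and SD beside the points and the same span of 1.5 log2 units in every panel. Most genes separate with Gr1hi above, Sdha has its Gr1lo mean above, and Atp5g1 overlaps through Gr1hi replicate 4 at 9.96.

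The 4 genes of complex II were divided. Sdhd, a membrane anchor, stood at 11.12, 11.08, 11.08 and 11.14 in Gr1hi and at 10.51, 10.79, 10.75 and 10.63 in Gr1lo, a 1.35-fold difference without overlap (-0.43, SE 0.07, adjusted p = 0.00065). Sdhb, the iron-sulfur subunit, stood at 11.19, 11.18, 11.21 and 11.18 in Gr1hi and at 10.94, 10.996, 10.93 and 10.91 in Gr1lo (1.19-fold, adjusted p = 0.0049). Both kept the groups apart, and the Gr1lo values of Sdhd spread more widely (SD 0.13) than its Gr1hi values (SD 0.03).

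Sdhc, the other anchor, read 9.95, 9.96, 10.08 and 10.16 against 9.91, 9.84, 9.87 and 9.90. Its groups nearly touched and the gene was not called (-0.16, adjusted p = 0.096), while its other tested probe set was called (adjusted p = 0.021). Sdha, the flavoprotein that oxidises succinate and also serves in the tricarboxylic acid cycle, stood at 10.41, 10.41, 10.50 and 10.46 in Gr1hi and at 10.50, 10.61, 10.58 and 10.66 in Gr1lo. It differed by 0.14 toward Gr1lo (95% interval 0.01 to 0.27) and was not called (adjusted p = 0.11).

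In complex III, 3 of 8 genes were called, all higher in Gr1hi. Uqcrfs1, the Rieske iron-sulfur protein, read 10.92, 10.96, 10.93 and 11.02 in Gr1hi and 10.57, 10.67, 10.65 and 10.70 in Gr1lo (1.24-fold, adjusted p = 0.0016). Uqcr11, a small accessory subunit, read 10.32, 10.32, 10.28 and 10.05 against 9.90, 9.87, 9.78 and 9.86 (1.31-fold, adjusted p = 0.0016). Both kept their groups apart, Uqcr11 by the narrower gap because of Gr1hi replicate 4.

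Uqcrq, which contributes to the ubiquinone-binding part, read 10.91, 10.83, 10.84 and 10.74 in Gr1hi and 10.48, 10.57, 10.54 and 10.45 in Gr1lo (1.25-fold, adjusted p = 0.0020). This call came from a probe set that can match several transcripts, and the other tested probe set differed by -0.04 (adjusted p = 0.70). The core subunits Uqcrc1 and Uqcrc2 differed by -0.08 each and were not called, nor were the hinge protein Uqcrh (-0.14), Uqcr10 (-0.09) and Uqcrb (-0.03). A second probe set of Uqcrh was called higher in Gr1hi, at -0.25 (adjusted p = 0.0076).

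Complex IV held the largest difference of all members. Cox6b2, an isoform of subunit 6b known from testis, stood at 8.40, 8.21, 8.31 and 8.14 in Gr1hi and at 7.35, 7.32, 7.16 and 7.28 in Gr1lo. The groups lay far apart, with a 1.98-fold difference (-0.99, SE 0.07, adjusted p = 1.4e-06). The widely expressed isoform Cox6b1 differed by -0.12 and was not called (adjusted p = 0.15). Of the other tissue-restricted isoforms, Cox7a1 and Cox7b2 lay below the table median in every array and Cox4i2 in 5 of 8, so they were not tested. Cox6a2, Cox8b and Cox8c were tested and not called, at differences of 0.09, -0.04 and 0.08.

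Of the 10 main Cox genes, 5 were called higher in Gr1hi and their median difference was -0.23. Cox8a, the widely expressed isoform of a small subunit, read 12.47, 12.42, 12.44 and 12.39 in Gr1hi and 12.07, 12.22, 12.01 and 12.07 in Gr1lo (1.26-fold, adjusted p = 0.0017). Cox6c read 12.42, 12.49, 12.49 and 12.42 against 12.09, 12.25, 12.09 and 12.15 (1.24-fold, adjusted p = 0.0022). In both genes the Gr1lo values spread more widely, with replicate 2 the highest.

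Cox7a2l has been described as a factor that joins complexes III and IV into supercomplexes, and whether it does so in these mice was not tested. It read 11.67, 11.51, 11.46 and 11.61 in Gr1hi and 11.14, 11.25, 11.33 and 11.23 in Gr1lo (1.25-fold, adjusted p = 0.0040). All 3 of its probe sets were called, but the call of the brightest was lost without Gr1lo replicate 1 (adjusted p = 0.053). The regulatory subunit Cox4i1 (-0.30) and Cox5b (-0.29) were called too, and Cox7a2 missed the threshold (-0.16, adjusted p = 0.059), while another probe set of it was called higher in Gr1hi (-0.21, adjusted p = 0.021).

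Cox5a, which sits beside Cox4i1 in the enzyme, differed in the opposite direction, by 0.17, and was not called (adjusted p = 0.11). Of its 3 tested probe sets, 1 was called higher in Gr1lo, reading 11.70, 11.74, 11.84 and 11.82 in Gr1hi and 11.88, 11.98, 12.00 and 11.94 in Gr1lo (difference 0.18, adjusted p = 0.047). It was the only one of 156 tested member probe sets called in that direction, while 92 were called higher in Gr1hi (59.0%). Among all probe sets 31.1% were called, 15.2% higher in Gr1lo and 15.9% higher in Gr1hi. Cox7c was represented by a dim probe set and differed by 0.07 (adjusted p = 0.73), and Cox6a1 differed by -0.03.

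In complex V all 17 tested genes had a difference below 0 and 12 were called. Atp5c1, the gamma subunit whose rotation drives catalysis, stood at 12.11, 12.00, 12.10 and 12.04 in Gr1hi and at 11.55, 11.53, 11.39 and 11.53 in Gr1lo. The groups did not overlap, and the difference was 1.48-fold (-0.56, SE 0.06, adjusted p = 3.3e-05). This probe set can match several transcripts. The other tested probe set of Atp5c1 was also called higher in Gr1hi, at a smaller difference of -0.22 (adjusted p = 0.035). The subunits of the F1 head that carry the catalytic and nucleotide-binding sites, Atp5b and Atp5a1, differed by -0.10 and -0.07 and were not called (adjusted p = 0.23 and 0.48), while Atp5d (-0.26) and Atp5e (-0.28) of the central stalk were called.

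Of the 9 subunits of the peripheral stalk and the membrane part, 7 were called, with a median difference of -0.23. Atp5h, subunit d of the peripheral stalk, read 12.42, 12.52, 12.50 and 12.49 in Gr1hi and 12.11, 12.16, 12.02 and 12.15 in Gr1lo (1.29-fold, adjusted p = 0.00054). Atp5o, the subunit that ties the stalk to the F1 head, read 11.26, 11.29, 11.42 and 11.21 against 10.96, 11.002, 10.90 and 10.996 (1.26-fold, adjusted p = 0.0019). Both kept the groups apart, as did Atp5pb, subunit b (-0.32). Atp5j, coupling factor 6, fell just outside the threshold at -0.19 (adjusted p = 0.052), and Atp5l just inside at -0.18 (adjusted p = 0.041).

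The c ring, which turns as protons pass, is encoded by 3 genes for the same mature protein. Atp5g1 read 10.46, 10.40, 10.40 and 9.96 in Gr1hi and 10.09, 10.04, 9.74 and 9.93 in Gr1lo, with overlap through Gr1hi replicate 4 (1.28-fold, adjusted p = 0.033). Its call was lost without Gr1hi replicate 1, 2 or 3 or Gr1lo replicate 3 or 4 (adjusted p from 0.072 to 0.090). Atp5g2 was called at -0.33 (adjusted p = 0.021) and Atp5g3 was not, at -0.12 (adjusted p = 0.15). Over the complex, the number of called genes dropped to 7 of 17 without Gr1lo replicate 3.

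Different probe sets of a gene mostly gave differences of the same sign. Of 46 member genes with several tested probe sets, 19 had all of them called in 1 direction, 12 had some called and some not, and 15 had none called. None had calls in opposite directions, and 39 had differences of 1 sign. In 7 genes the differences of the probe sets spanned more than 0.3. The widest disagreement was in Ndufa10, whose bright probe set differed by -0.50 and whose dim one, at group means of 6.48 and 6.56, by 0.08. Probe sets annotated jointly to several genes entered no count. Among them, chosen after their values were seen, those for Ndufs6 with Ndufs6b (-0.37) and Ndufs5 with its pseudogene (-0.34) were called higher in Gr1hi, and those for Ndufa11 with Ndufa11b and for Ndufb4 with its copies were not.

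Other genes of the pathway were called in both directions, and how their counts differ from those of the members was not tested. Of 24 tested electron carriers and assembly factors of complexes III and IV, 9 were called higher in Gr1hi and 1 higher in Gr1lo (41.7% called, against 32.5% of all genes tested). Surf1, which assembles complex IV, was 1.81-fold higher in Gr1hi (-0.86) and Cmc1, another factor for that complex, 1.68-fold (-0.75). Uqcc1, an assembly factor of complex III, was 1.23-fold higher in Gr1lo (0.30). The carrier Cycs, cytochrome c, was called at -0.22, while Cyc1, the cytochrome subunit of complex III, differed by -0.0047 and was not called.

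Of 17 further assembly and regulatory factors of complexes I, II and V, 4 were called higher in Gr1hi and 1 higher in Gr1lo (29.4%). Atpif1, the inhibitor of ATP synthase running in reverse, was 1.71-fold higher in Gr1hi (-0.77) and Dmac1, a factor for the membrane arm of complex I, 1.54-fold. Sdhaf1, which helps insert iron-sulfur clusters into Sdhb, was 1.20-fold higher in Gr1lo (0.26). The mitochondrial genome was represented by ND5, a proton-pumping subunit of complex I, which read 13.12, 13.07, 13.19 and 13.05 in Gr1hi and 12.86, 12.91, 12.75 and 12.72 in Gr1lo (-0.30, adjusted p = 0.0048). The ND5 groups did not overlap, in the same direction as the nuclear members.

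Ubiquinone synthesis genes were called in both directions, 4 of 12 higher in Gr1hi and 3 higher in Gr1lo (58.3%). Coq7 (-0.42) and the kinase-like Coq8b (-0.37) were higher in Gr1hi, and the ubiquinone-binding Coq10b (0.76) and the methyltransferase Coq5 (0.32) higher in Gr1lo. The tricarboxylic acid cycle with pyruvate dehydrogenase had 7 of 15 higher in Gr1hi and 2 higher in Gr1lo (60%). Fumarase, Fh1, was 1.60-fold higher in Gr1hi and the isocitrate dehydrogenase subunit Idh3b 1.26-fold. The pyruvate dehydrogenase subunit Pdha1 was 1.51-fold higher in Gr1lo and Idh3a 1.26-fold.

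Carriers and channels of ATP export had 5 of 7 tested genes called higher in Gr1hi and 0 higher in Gr1lo (71.4%, median difference -0.32). Slc25a4, an isoform of the carrier that exchanges ATP for ADP, read 10.33, 10.12, 10.31 and 10.24 in Gr1hi and 8.53, 8.38, 8.43 and 8.54 in Gr1lo. Its groups were far apart, at 3.43-fold (-1.78, SE 0.07, adjusted p = 1.2e-08), beyond any member. Slc25a5, another isoform of this carrier, differed by -0.20 (adjusted p = 0.026), and the outer membrane channel Vdac1 by -0.48.

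Regulators of mitochondrial biogenesis had 2 of 15 tested genes called in each direction (26.7% in all, median difference 0.06). The accessory subunit of the mitochondrial DNA polymerase, Polg2 (-0.31), and the helicase Twnk (-0.24) were higher in Gr1hi. The nuclear receptor Esrra, which encodes ERR alpha, stood at 8.76, 8.65, 8.68 and 8.62 in Gr1hi and 8.89, 9.22, 9.11 and 8.93 in Gr1lo (0.36, adjusted p = 0.0048). Nrf1 read 8.19, 7.87, 7.91 and 7.88 against 8.32, 8.35, 8.21 and 8.07, with overlap (0.28, adjusted p = 0.037). Esrra and Nrf1, known as activators of respiratory chain genes, were the 2 of 15 called higher in Gr1lo. Among all genes tested, 14.1% were called higher in Gr1lo and 32.5% in either direction. How these 2 genes bear on the members was not tested. Gabpa, an Ets factor, was not called (0.06), nor was Tfam, which packages mitochondrial DNA (0.02), and the coactivator Ppargc1a lay below the table median in every array.

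Genes of mitochondrial import and inner membrane shape had 4 of 17 called higher in Gr1hi and 2 higher in Gr1lo (35.3%, median difference 0.01). The chaperonin partner Hspe1 (-0.66) and the import receptor Tomm70a (-0.33) were higher in Gr1hi, and the fission protein Dnm1l (0.32) and the chaperone Hspa9 (0.19) higher in Gr1lo. In RNA from sorted pools, fewer cells that express a gene and less RNA per cell cannot be told apart.

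**Figure D5:**
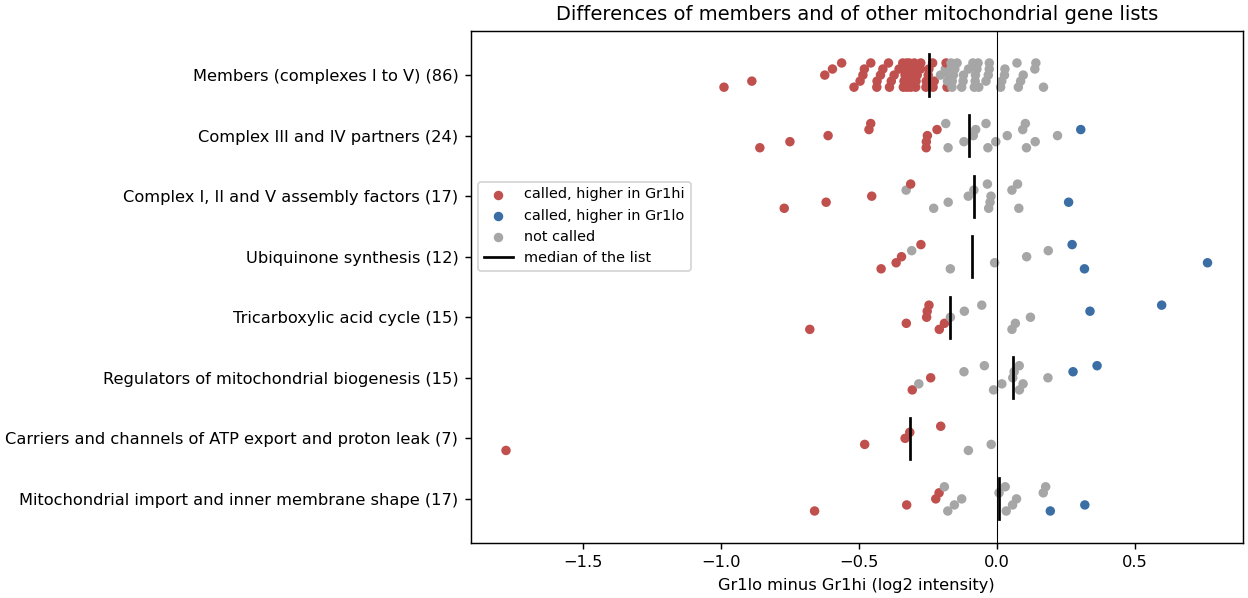
Difference Gr1lo minus Gr1hi in log2 intensity (horizontal axis) for each tested gene of the members and of 7 other mitochondrial lists, with the number of tested genes in brackets and a line at each median. Red points were called higher in Gr1hi, blue higher in Gr1lo and grey not called. The members hold no blue point, and the far left point of the carriers is Slc25a4 at -1.78.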

How the data were processed

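RNA of 8 sorted monocyte samples was hybridised to 1 array each. Per the labels' protocols, the in vitro transcription step ran for 64 h in place of 4 h, which can change measured ratios. The authors deposited probe set intensities on a linear scale, with nearly equal medians over arrays. GCRMA and MAS5 are both listed in the submitters' processing notes, with no role or order, so the normalization is unknown. The log2 of each deposited value was used, without a pseudocount.

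Of 45037 probe sets that are not controls, 22831 were tested: those over the table median (intensity 81.9) in at least 4 of 8 arrays. Gr1lo was compared with Gr1hi with limma 3.58.1 in R 4.3.3, two-sided, without a block, with p-values adjusted after Benjamini and Hochberg across these probe sets. Intervals are at 95% and unadjusted. The workflow was tested on simulated data. Alternatives were a replicate block, leaving out arrays, and other filters, normalizations, scales, variance models, probe set choices and a threshold of 0.01.

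Full values are given for all Sdh genes and for the 4 called genes with the largest difference in each direction in the other complexes and among the Ndufaf genes. Also named were tissue-restricted isoforms, members near the threshold or near 0, untested members and, in each pathway list, the 2 called genes with the largest difference in each direction. Further members are named to account for their group. Members and lists were chosen with earlier results of these data known. Human arrays of the study were not analysed here.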

Additional observations from a re-analysis of the deposited data

Results flagged for a closer look

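Among 52 groups of 4 values examined (the 20 genes given in full and the means of the complexes), 2 held a value far from the other 3 by Dixon's criterion at 95%, where chance gives about 1 in 20. Atp5g1 in Gr1hi replicate 4 stood at 9.96 log2 intensity, while the other Gr1hi arrays lay between 10.40 and 10.46. Atp5c1 in Gr1lo replicate 3 stood at 11.39, while the other Gr1lo arrays lay between 11.53 and 11.55.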

How the results depend on the processing

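Over 21 alternative settings, 35 to 56 member genes were called higher in Gr1hi (49 of 86 tested as reported), and 25 were called in every one. The lowest count, 35 of 64 tested (54.7%), was with probe sets free of shared-transcript suffixes. Members without such a probe set could not be among the 25. Leaving out 1 array gave 42 to 54, with 38 genes called each time. No value of the genes given in full changed direction, and 404 of 415 kept their call as well. A gene was called higher in Gr1lo in 2 settings, 1 gene each with an intensity trend in the variance and with probe sets free of shared-transcript suffixes, in both cases Cox5a. Complex V gave 7 called genes without both samples numbered 1 and 6 at a threshold of 0.01, and 7 to 13 with 1 array left out. The median of complex IV (-0.14) was -0.040 with no filter, -0.16 with the filter in all arrays, -0.29 with a filter at the 75th percentile, -0.11 with quantile normalization, cyclic loess or the suffix-free probe sets, and -0.17 to -0.12 with 1 array left out. That of complex III was -0.093 with cyclic loess and that of complex II -0.25 with suffix-free probe sets. The filters and the suffix rule change which genes are tested, and the other causes were not tested. With the replicate block 48 members were called higher in Gr1hi, 47 of them as reported. The labels do not say whether equal replicate numbers mark pairs of samples. Correlations between arrays cannot decide it here, because their ranges overlap. Deviations of arrays with the same number correlated at -0.10 to 0.34, those with different numbers at -0.41 to 0.55. The highest value was between Gr1hi replicate 4 and Gr1lo replicate 3. Samples of both subsets may share sorts, but which ones do is not labelled, so a pairing by sort was not modelled. Separate sorts of pooled mice are the only replication, and dim probe sets limit what could be tested.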
